A study of Mus musculus with 2 samples.

Results

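ChIRP-seq (chromatin isolation by RNA purification, followed by sequencing) maps the DNA that is recovered together with a chosen RNA, here the mouse liver lncRNA *Gm19619*. The regions described are the odd-only exonic peaks, that is, peaks of the odd-numbered probes whose highest point lies in the coding sequence (CDS) or an untranslated region (UTR) of a protein-coding gene. They were chosen by 4 measured properties, which are therefore not findings. The peak had to lie on chromosomes 1 to 19, share no base with any peak of the even-numbered probes, have a pileup (extended reads stacked at the summit) under 30, and have its summit in a CDS or UTR, more than 1000 bp from every start of a protein-coding gene's transcripts. Of 14261 odd peaks, 13653 were on these chromosomes, 13110 of these (96.0%) overlapped no even peak, and 12428 also had a pileup under 30. Of the 12428, 655 had an exonic summit, 245 of them within 1000 bp of a start, which left 410 odd-only exonic peaks in 401 genes. In 4 of them the summit lay in exons of more than 1 gene, and the CDS was then taken before a UTR. The 410 peaks are 3.30% of the odd-only peaks with a pileup under 30.

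Both libraries came from primary hepatocytes pooled from 4 female wild-type C57BL/6 mice aged 8 weeks and fixed in 3% formaldehyde for 10 min. The groups differ only in the probe set, odd or even, and no treated or mutant animals entered the comparison. Each probe set gave 1 library, made from the same pool of cells, so there were no replicates, the animals cannot be told apart and no test between the sets was possible. No library that would show recovery independent of the RNA, such as a pull-down with unrelated probes, was analysed here. After removal of duplicates 6972538 odd and 7052802 even reads were left, which is 11.4% and 10.7% of those mapped. The authors called peaks in each library separately, without a control library, on the mm10 build (GRCm38). All intervals below are 95% Wilson or exact Poisson intervals and cover counting error only. For a count of 0, the share said to be allowed is instead 3 over the number examined, which is lower than the upper Wilson limit.

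In ChIRP, short biotinylated DNA probes complementary to the RNA pull it down with the cross-linked chromatin, and the probes are divided into odd and even sets so that signal seen with both sets can be told from signal seen with 1 of them. A probe is a single-stranded DNA and can pair with any nucleic acid that carries its complement. Exons are transcribed DNA whose CDS part is translated, while the UTRs flank it and hold elements that act on mRNA stability and translation.

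Because the odd-only exonic peaks were called with the odd probes and overlap no called even peak, the stretches of *Gm19619* that the odd probes target are shown first. Of the 14 listed probes, 11 have an exact site in the spliced GENCODE RNA (3201 nt in 6 exons), 6 odd and 5 even probes, and the others were left out. The letters below are those of the plus strand of chromosome 5 (GRCm38), which reads as the probe does, since the gene lies on the minus strand. Capitals mark the bases most often covered, in the odd-only exonic peaks, by a run of at least 12 consecutive matching bases. A base is marked if such runs cover it in at least 50% as many peaks as the most covered base of that site. Any run of 12 or more bases in a site of 20 covers bases 9 to 12, so the capitals include the middle by construction. Those of probe 11 rest on 3 peaks and those of probe 13 on 1.
Probe 1 (chr5:91283023-91283042): aagGAGAGTGAAGTGGcagt
Probe 3 (chr5:91273978-91273997): tgtgcCATGTGAAAGCAGag
Probe 7 (chr5:91258494-91258513): gggaACTGAGCTGTGAgatg
Probe 9 (chr5:91258311-91258330): ctatGGGTTCTGGACAGctc
Probe 11 (chr5:91258104-91258123): tatCTTTGAGCTTCGAGacc
Probe 13 (chr5:91257895-91257914): cAGATGATACGATGtcccaa

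Of the odd-only exonic peaks, 18 held a run of 14 or more bases. The 5 with 15 or 16 bases are shown, and the 5 of highest pileup among the 13 tied at 14, as 30 bases around the run, on the strand that carries the probe letters, with the run in capitals.
Bmp3, summit in CDS, probe 9 (chr5:98872138-98872167, minus strand): atccttgGGGTTCTGGACAGCTCaagctga
Lrrc43, summit in CDS, probe 9 (chr5:123500270-123500299, plus strand): gtcagagGGGTTCTGGACAGCTCtatcttg
Gigyf2, summit in CDS, probe 1 (chr1:87428540-87428569, minus strand): ctaagggaAAGGAGAGTGAAGTGtgtgtga
Paxip1, summit in 3′ UTR, probe 9 (chr5:27740918-27740947, plus strand): aagctgtGGTTCTGGACAGCTCctcaagtt
Prex1, summit in CDS, probe 1 (chr2:166583206-166583235, minus strand): ggtcagtgAGGAGAGTGAAGTGGaccggac
Plin2, summit in 3′ UTR, probe 7 (chr4:86656883-86656912, plus strand): aagaccatAACTGAGCTGTGAGtgaccata
Chd1, summit in CDS, probe 7 (chr17:15732967-15732996, minus strand): gattggaaTGAGCTGTGAGATGaatcaggt
Rmnd5a, summit in 3′ UTR, probe 7 (chr6:71390100-71390129, plus strand): taaacataGGGAACTGAGCTGTacagcctg
Lct, summit in CDS, probe 9 (chr1:128312993-128313022, minus strand): gtggcaaaGGTTCTGGACAGCTtcttagaa
Hdac7, summit in CDS, probe 9 (chr15:97806547-97806576, plus strand): gggaagacTGGGTTCTGGACAGgggccggt
Within each of these windows the capital letters repeat a piece of an odd probe site, and the letters on either side do not continue it. The class given is that of the summit. The run itself lay in an exon at *Bmp3*, *Lrrc43*, *Paxip1*, *Prex1*, *Plin2*, *Rmnd5a* and *Hdac7*, across an exon boundary at *Chd1*, and outside exons at *Gigyf2* and *Lct*.

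Of these peaks, *Bmp3*, which encodes a secreted BMP-family ligand, had a pileup of 29 and a fold enrichment of 19.8 over the library's background. Its summit (98872156) lay in exon 2 of 2, inside a run of 16 bases of probe 9. The *Lrrc43* peak held the same 16 bases, with its summit in exon 6 of 12 and a pileup of 19. *Gigyf2*, a partner of a cap-binding translational repressor, had a pileup of 29 at its summit in exon 21 of 29, and the peak held 15 bases of probe 1. *Prex1*, which encodes an activator of the GTPase Rac, held 15 bases of the same probe, with its summit in exon 26 of 40 and a pileup of 24. *Paxip1*, an adaptor protein of the DNA damage response, had a pileup of 26 in the 3′ UTR with 15 bases of probe 9. The other 5 peaks shown each held 14 bases. *Plin2*, the coat protein of hepatic lipid droplets, had a pileup of 29 in its 3′ UTR. The chromatin remodeller *Chd1* had 26, *Rmnd5a*, a subunit of a ubiquitin ligase complex, had 24, *Lct*, the intestinal lactase, had 22 and the histone deacetylase *Hdac7* had 17. These 10 peaks held 7 to 9 consecutive bases of an even probe site. The 8 further peaks with 14 bases had lower pileups, since pileup chose among them, namely 14 at *Ppl*, 12 at *Ttll6*, 11 at *Ccdc187*, 10 at *Tmprss2*, *Stxbp3* and *Prdm16*, 9 at *Arpc4* and 8 at *Rps6ka2*.

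By position, the summit lay in the CDS in 206 of the 410 peaks (50.2%, 45.4 to 55.1), in a 3′ UTR in 199 (48.5%, 43.7 to 53.4) and in a 5′ UTR in 5. The sequence in which a summit could have fallen comprised 24.5 Mb of CDS, 30.5 Mb of 3′ UTR and 0.647 Mb of 5′ UTR, since regions within 1000 bp of a start were left out. Per Mb, 8.40 peaks (7.29 to 9.63) lay in the CDS and 6.53 (5.66 to 7.50) in 3′ UTRs, and all exons together had 7.37 (6.67 to 8.12). Introns had 5.80 odd-only peaks per Mb (5.64 to 5.96) under the same pileup limit, and sequence outside genes had 4.36 (4.25 to 4.47). Sequence within 1000 bp of a start, which the selection leaves out, had 10.5 (9.83 to 11.1), more than exons. The interval of the CDS lay above those of introns and intergenic sequence, whereas that of 3′ UTRs overlapped that of introns. In the even list, exons had 1.11 even-only peaks per Mb (0.854 to 1.43, 62 peaks) and introns 1.27 (1.19 to 1.35), with overlapping intervals. Whether the contrast between exons and introns differs between the lists was not tested.

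**Figure D1:**
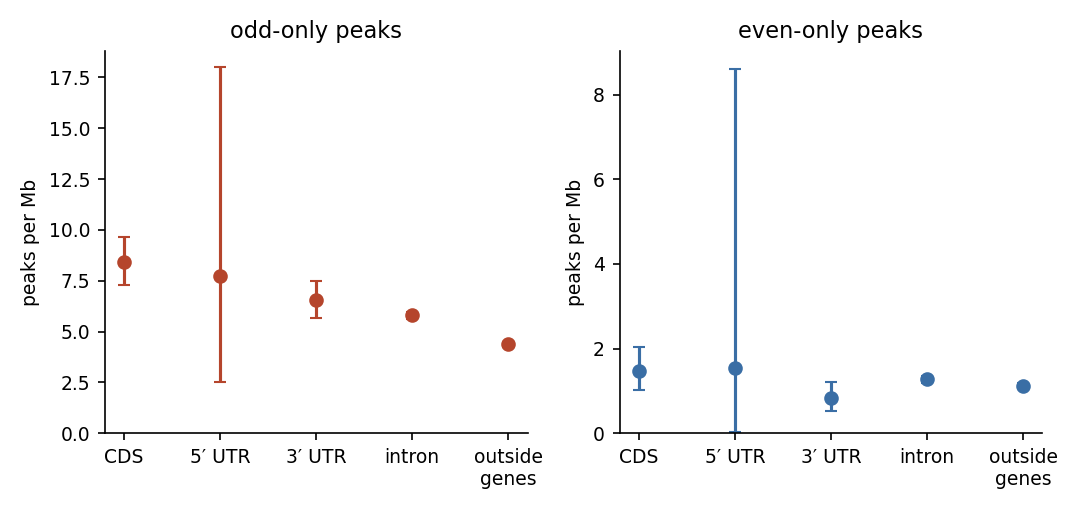
Peaks per Mb of sequence (y axis, with exact 95% Poisson intervals) found with the odd probes only (left) and with the even probes only (right), by region (x axis), on different y scales. Odd-only peaks numbered 8.40 per Mb in CDS, 6.53 in 3′ UTRs, 5.80 in introns and 4.36 outside genes, and even-only peaks 1.47, 0.821, 1.27 and 1.12.

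Base composition and repeat content differed between these regions as well. The eligible CDS was 51.0% G and C, 3′ UTRs 42.8%, introns 42.4% and sequence outside genes 41.0%, and 4.74%, 19.4%, 28.8% and 38.2% of their bases were soft-masked as repeats. The odd probe sites averaged 50% G and C, between 45% and 55%, and the even sites 41.0%. Peaks with their summit in the CDS were 50.8% G and C over all their bases, close to the eligible CDS. Soft-masked bases made up 8.13% of them, against 4.74% of eligible CDS. These are unlike sequences, since a median of 62.5% of the bases of a CDS peak were exonic and the rest were not. Peaks with their summit in 3′ UTRs were 47.0% G and C, above the 42.8% of eligible 3′ UTR sequence, and 14.5% of their bases were soft-masked. More than 50% of the bases were repeats in 15 of the 410 peaks (3.66%, 2.23 to 5.95), against 13.6% of intronic (12.7 to 14.6) and 19.7% of intergenic odd-only peaks (18.7 to 20.7). The part of base composition and of repeats in the density by region was not tested.

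Within the genes, the peaks lay in exons of ordinary length. For CDS summits the exon was 195 bp long at the median, from 38 to 8020 bp, while the median exon length over all eligible CDS bases was 205 bp. For 3′ UTR summits the values were 2918 and 2961 bp. The last exon held 195 of the 199 peaks of 3′ UTRs, and 44 of the 206 peaks of the CDS. Peaks were often wider than the coding exon under them, so that a median of 62.5% of the bases of a CDS peak were exonic, against 100% for the 3′ UTR. At least 50% of the peak was exonic in 134 of the 206 CDS peaks and in 189 of the 199 3′ UTR peaks. *Sctr*, the secretin receptor, shows the extreme, with a 954-bp peak (pileup 24) over a 42-bp exon, so that 4.40% of the peak was exonic. The run of 13 bases of probe 9 in this peak lay 75 bp from the summit, outside this exon.

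The pileup of the 410 peaks ran from 5 to 29, with a median of 11 and quartiles of 8 and 15, which the selection limits from above. Between 5 and 9 lay 164 peaks, between 10 and 14 lay 140, and 15 peaks reached 25 or more. Fold enrichment is the same quantity in another unit, (pileup + 1) over (background + 1), and its median was 7.91 (3.96 to 19.8). Median peak length was 276 bp, from 200 to 954 bp. Odd-only peaks in introns and outside genes had the same median pileup of 11, and even-only exonic peaks had 9. By class, the median pileup was 11 in the CDS (quartiles 9 and 14.8) and 10 in 3′ UTRs (8 and 15). The 5 peaks in 5′ UTRs had 18 at *Mecom*, 15 at *Klhdc8b*, 13 at *Inhbe*, 12 at *Prdx6* and 8 at *Plagl2*. In the CDS and in 3′ UTRs the heights ran from 5 to 29 and from 6 to 29, with the upper end set by the selection.

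**Figure D2:**
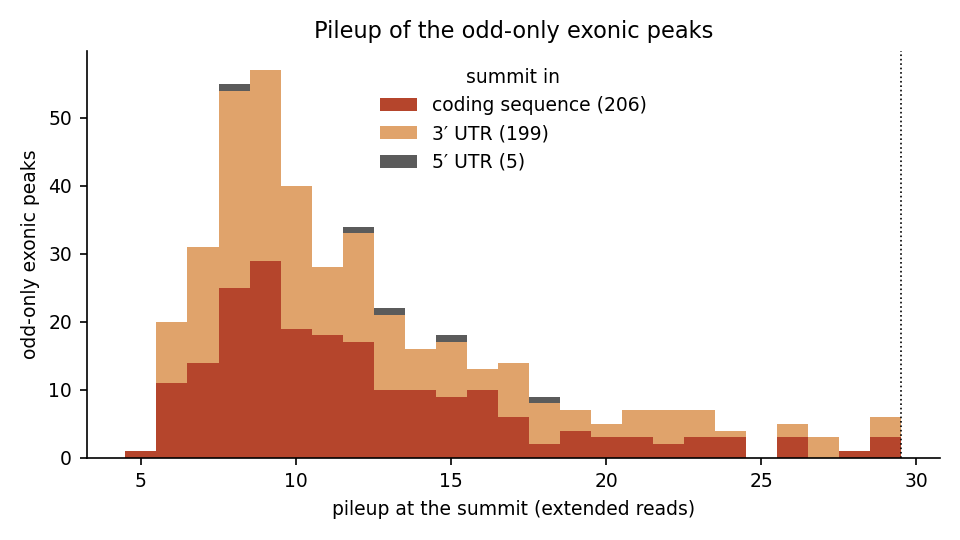
Number of odd-only exonic peaks (y axis, stacked by the position of the summit) at each pileup (x axis, extended reads), with the selection limit dotted. Most of the 410 peaks lie between 5 and 14, and 15 reach 25 or more.

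Just inside the pileup limit were 6 peaks of 29, at *Bmp3*, *Gigyf2* and *Plin2* (above), in the 3′ UTR of *Pacs2*, a sorting protein of contacts between endoplasmic reticulum and mitochondria, in the 3′ UTR of *Lhpp*, and in the CDS of the ubiquitin ligase *Nedd4*. Their longest odd run was 11 bases for *Pacs2*, 12 for *Lhpp* and 9 for *Nedd4*. Just outside were *Ralgps2* and *Pou2f1* with 30, and *Nfyb*, *Arc* and *Ttr* with 31. Their longest odd runs were 9, 11, 11, 13 and 7 bases. In all, 20 odd-only peaks that met every other condition had a pileup of 30 or more, up to 49, and 8 exonic odd peaks were left out because they overlapped an even peak. Of these 8, 0 held a run of 12 or more bases of either probe set.

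To learn what the 410 peaks share in sequence, which the selection did not use, each peak was searched on both strands for its longest run of consecutive bases of a probe site. A run of at least 12 bases of an odd site was present in 112 peaks (27.3%, 23.2 to 31.8). Such a run of an even site was present in 1 peak (0.244%, 0.0431 to 1.37), in the 3′ UTR of *Fndc3b* (chr3:27418200-27418399, pileup 7), with 12 bases of probe 6. Over all 12428 odd-only peaks under the pileup limit the shares were 26.5% and 0.153%, so the exonic peaks lay near the background of their list. Introns had 27.4% (26.2 to 28.6) and sequence outside genes 26.7% (25.6 to 27.8), both inside the interval of the exonic peaks. Odd-only peaks within 1000 bp of a start had 21.1% (18.6 to 23.7), a share below that interval. Of the 62 even-only exonic peaks, 17 held a run of an even site (27.4%, 17.9 to 39.6) and 0 a run of an odd site, which allows a share of up to 4.84%. Each list thus carried runs of its own probe set in exons, at a like share.

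**Figure D3:**
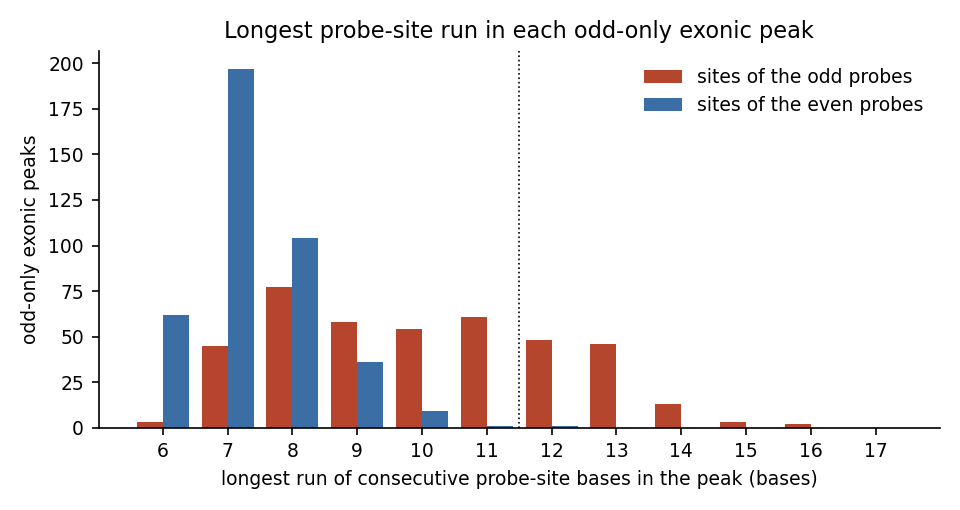
Number of odd-only exonic peaks (y axis) by their longest run of consecutive probe-site bases (x axis), for sites of the odd and even probes, with the limit of 12 bases dotted. The longest odd run reached 12 or more bases in 112 peaks and the longest even run in 1.

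The longest odd run was 7 to 11 bases in 295 peaks, 12 in 48, 13 in 46, 14 in 13, 15 in 3 and 16 in 2. For even sites the longest run was 7 or 8 bases in 301 of the 410 peaks and 6 in 62. Among peaks with their summit in the CDS, 49 of 206 held an odd run of at least 12 bases (23.8%, 18.5 to 30.05), and among those in 3′ UTRs 61 of 199 (30.7%, 24.7 to 37.4), with overlapping intervals. In 5′ UTRs, *Mecom* and *Klhdc8b* held such a run of 12 bases. The run itself, which can lie apart from the summit, was wholly in an exon of a protein-coding gene in 90 of the 112 peaks, across an exon boundary in 2 and outside exons in 20. Of the 49 peaks with a CDS summit, 32 had the run in an exon and 15 outside, and of the 61 with a 3′ UTR summit, 57 and 4.

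The probes contributed unequally. Probe 7 gave the longest run in 47 of the 112 peaks, probe 1 in 31, probe 9 in 19, probe 3 in 11, probe 11 in 3 and probe 13 in 1. The order was the same over all odd-only peaks under the pileup limit, with 1341, 900, 546, 424, 68 and 18 peaks. Within probe 7 the capitals above span bases 5 to 16 of the site, which runs covered in 28 and 26 of the 47 peaks at these 2 ends. Within probe 1 they span bases 4 to 16, covered in 17 and 18 of the 31 peaks at the ends. The middle bases were covered in every such peak because a run has at least 12 bases. Probe 13 was matched at *Spty2d1*, whose 3′ UTR peak (pileup 9) held 13 of its bases. Probe 11 was matched in the 3′ UTRs of *Prdm16*, a regulator of brown fat (14 bases, pileup 10), and *Pros1*, the anticoagulant protein S (13 bases, pileup 15), and in the CDS of *Ugt2a1* (12 bases, pileup 9).

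Every 12-base word of the spliced RNA was then counted in the 410 peaks, to see where along *Gm19619* the shared sequence lies. Inside the odd sites 43 of 54 words occurred in at least 1 peak, and a word of probe 7 occurred in 20 (4.88%). Inside the even sites 1 of 45 words did. Of the 2849 words that touch no site, 99 occurred in any peak and 5 in 3 or more. The liver transcript the study describes is shorter than the GENCODE RNA and includes every site used here. Within its parts, 54 of 1248 words outside the sites occurred in any peak and the same number, 5, in 3 or more. The most frequent of these, which start at RNA positions 2016 to 2022, occurred in at most 4 peaks (0.976%). Words found in 3 or more peaks thus made up 26 of the 54 words of the odd sites, against 5 of the 2849 outside every site.

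**Figure D4:**
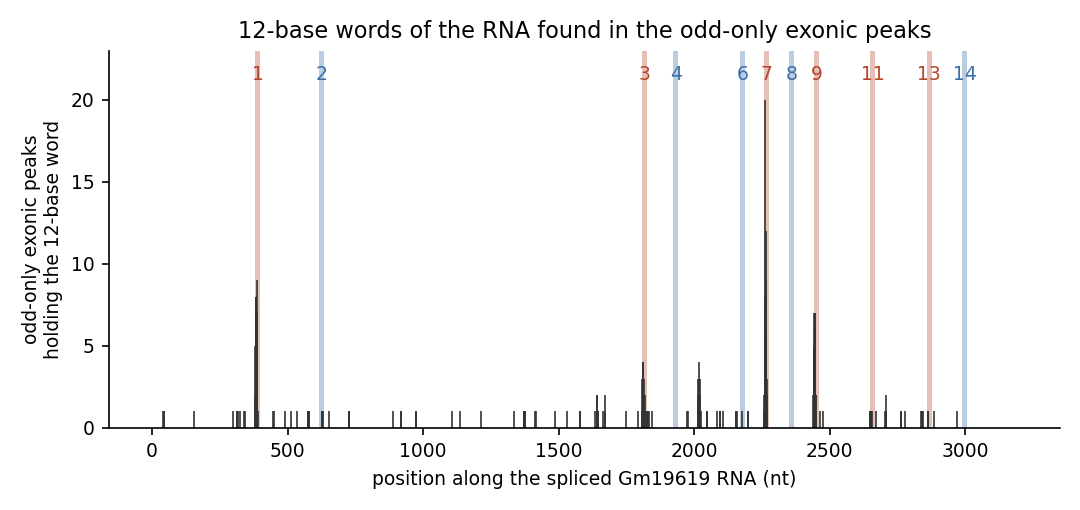
Number of odd-only exonic peaks that hold each 12-base word of *Gm19619* (y axis) by the position of the word in the spliced RNA (x axis), with the sites of the odd probes shaded red and of the even probes blue. The highest bar, 20 peaks, lies in the site of probe 7, and no word outside the sites occurred in more than 4.

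Pileup differed with the length of the run. It was 9 at the median in the 183 peaks whose longest odd run was under 10 bases, 11 in the 115 with 10 or 11 bases, 12.5 in the 48 with 12, 15 in the 46 with 13 and 18 in the 18 with 14 or more. The ranges overlapped, from 5 to 29 in the first of these groups and from 8 to 29 in the last, with the upper end set by the selection. Over all odd-only peaks under the limit the medians were 10, 11, 12, 13 and 18. The peaks also widened, from a median of 241 to 424.5 bp, while their G and C content stayed between 47.0% and 50.7%. A wider peak offers more bases in which a run can be found, and peaks of equal length were not compared. These medians are values across peaks of 1 library, which are not replicates.

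The position of the run was also compared with that of the summit. The median distance between them was 48 bp (quartiles 12 and 87.2, at most 177). The summit lay inside the run in 16 of the 112 peaks, and in 92 (82.1%) it lay within 100 bp. Median peak length was 289 bp with a run of 12 bases and 424.5 bp with 14 or more. A good part of such a peak therefore lies within 100 bp of its summit, wherever the run falls. Between runs of equal length the one nearest the summit was taken. The share expected for runs placed without regard to the summit was not computed. With respect to the gene, the probe letters were on the sense strand in 63 of the 112 peaks (56.2%, 47.0 to 65.1) and on the antisense strand in 49, and the interval includes equal shares. The share was 61.2% in the CDS (47.2 to 73.6) and 52.5% in 3′ UTRs (40.2 to 64.5). Among the 10 peaks shown above, *Lrrc43*, *Prex1* and *Lct* carried the probe letters on the sense strand and the other 7 on the antisense strand.

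The converse question is how many exonic sites with a run were found in an odd peak. Outside *Gm19619*, eligible exons on these chromosomes held 602 sites with a run of at least 12 bases of an odd probe site, of which 121 (20.1%, 17.1 to 23.5) lay in an odd peak of any height. The share was 10.5% of 474 sites at 12 bases (8.09 to 13.6), 49.5% of 103 at 13 (40.1 to 59.0), 75% of 20 at 14 (53.1 to 88.8), and 5 of 5 at 15 or more. In introns it was 10.7%, 41.6%, 75.3% and 99.1%, and outside genes 10.1%, 33.5%, 71.5% and 97.4%. Within 1000 bp of a start, which the selection leaves out, it was 20.2% (17.3 to 23.4), 46.7%, 86.1% and 100%. Over all sites near a start it was 29.5% (26.6 to 32.5). At 12 bases and over all sites, these intervals lay above the exonic ones. At 13 bases the exonic interval lay above that of sequence outside genes (31.5 to 35.6) and overlapped that of introns (39.1 to 44.2), and at 14 bases all intervals overlapped. The even list had a peak over 0 of the 602 exonic odd sites, which allows a share of up to 0.498%. Of 348 exonic sites of even probes, 15 lay in an even peak (4.31%, 2.63 to 6.99) and 2 in an odd peak (0.575%). By probe, 32.7% of 150 exonic sites of probe 7 lay in an odd peak, 30.1% of 123 of probe 1, 13.2% of 136 of probe 9 and 9.26% of 108 of probe 3.

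**Figure D5:**
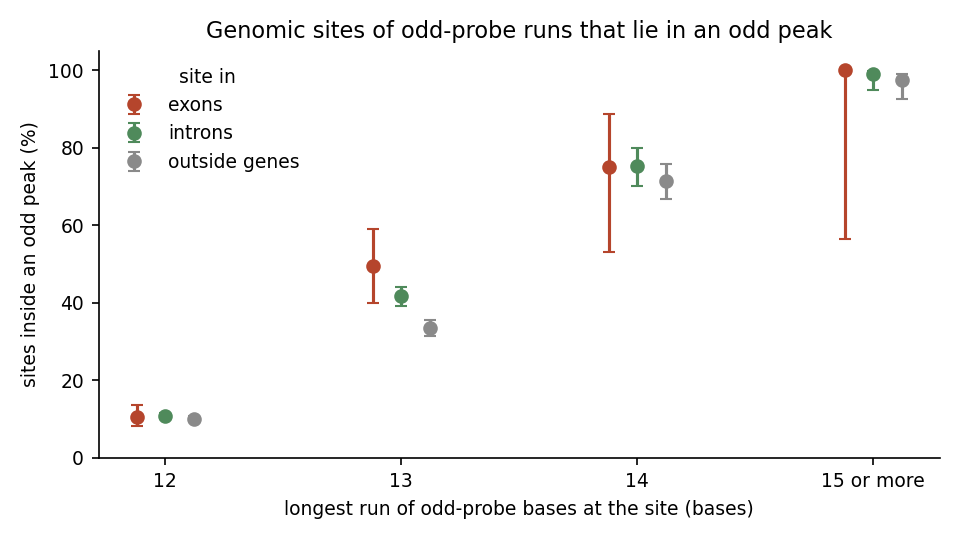
Share of genomic sites inside an odd peak (y axis, %, with 95% Wilson intervals) by the longest run of odd-probe bases at the site (x axis), for exons, introns and sequence outside genes. In exons the share was 10.5% at 12 bases, 49.5% at 13 and 75% at 14.

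The sites themselves were denser in exons, with 10.8 per Mb (9.97 to 11.7), than in introns or outside genes. Introns had 9.16 (8.96 to 9.36) and sequence outside genes 7.65 (7.51 to 7.80). Sequence within 1000 bp of a start had 9.54 (8.92 to 10.2), an interval that overlapped the exonic one. Exonic peaks with a run numbered 2.01 per Mb (1.66 to 2.42), against 1.59 (1.505 to 1.67) in introns and 1.16 (1.11 to 1.22) outside genes. Peaks without a run followed the same order of exons, introns and sequence outside genes. They numbered 5.36 (4.77 to 6.001), 4.21 (4.08 to 4.35) and 3.20 (3.11 to 3.29). Sequence within 1000 bp of a start had 2.21 (1.92 to 2.53) with a run and 8.27 (7.69 to 8.87) without, the latter above exons. The exonic and intronic intervals overlapped slightly for peaks with a run and lay apart for peaks without.

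In the 183 exonic peaks whose longest odd run was under 10 bases, the best gap-free match to any odd and any even site was compared. It was better for an odd site in 115 and for an even site in 26, with 42 ties, that is, for an odd site in 81.6% (74.4 to 87.1) of the untied peaks. In such peaks of introns the share was 79.7% (77.7 to 81.6) and outside genes 78.1% (76.2 to 79.8). In even-only exonic peaks without an even run of 10 bases, an odd site matched better in 7 and an even site in 15. The odd share of 31.8% (16.4 to 52.7) has an interval that includes equal shares. In such even-only peaks of introns the odd share was 42.9% (38.3 to 47.6). Over all even-only peaks under the pileup limit it was 47.6% (44.8 to 50.5). The median best score was 13 for odd and 12 for even sites in the odd-only exonic peaks, so single peaks differed little. The odd set also has 6 sites with an exact match and the even set 5. Odd sites averaged 50% G and C and even sites 41.0%. The 183 exonic peaks had a median of 50.2%, and the even-only exonic peaks 46.7%. The part of base composition in these matches was not tested.

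Words of 8 bases, read on both strands within 100 bp of the summit, were also counted in these 183 peaks, and the most frequent are named as a description, chosen after their counts were seen. The word GAGGAGGA occurred in 15 (8.20%), against 3.70% of the odd-only peaks without such a run in all regions. CCACTCAC occurred in 14 (7.65%), against 3.19%. Neither is part of an odd site. CACTCTCC, also among the most frequent words, is part of an odd site and occurred in 10 (5.46%), against 3.61%. Of the 5732 peaks of all regions used for comparison, 2178 lay in introns and 2825 outside genes. How often these words occur in exons without a peak was not counted. In the 62 even-only exonic peaks, with or without a run, GAGGAGGA occurred in 1, CCACTCAC in 0 and CACTCTCC in 1.

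The 410 peaks came from all 19 autosomes, from 43 on chromosome 2 and 38 on chromosome 11 down to 9 on chromosome 19. Genes with such a peak were 401 of 20807 protein-coding genes (1.93%, 1.75 to 2.12), and 394 of them had 1 peak. They had more eligible exon sequence than all protein-coding genes, 4145 against 2094 bp at the median, and were longer, 43696 against 17629 bp. Counting odd peaks of any kind in the gene body, 146 of the 401 genes (36.4%) held 2 or more, against 6.60% of all protein-coding genes. The shares are not like for like, since each of the 401 genes was chosen with 1 such peak and these genes are longer.

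Several peaks fell in 7 genes. *Ube2h*, a ubiquitin-conjugating enzyme, had 3 in its 3′ UTR within 2120 bp, with pileups of 15, 12 and 6. The former 2 held 12 bases of probe 1 and of probe 7, and the last had no run above 9 bases. *Hjurp*, the chaperone that loads the centromeric histone CENP-A, had 3 (pileups 7, 7 and 6), 1 in the CDS and 2 in the 3′ UTR. Its neighbour *Mroh2a* had 2, with pileups of 8 and 6. *Ralgapa2*, which encodes a subunit of a GTPase activator for Ral, had 17 in the CDS with 13 bases of probe 7, and 12 in the 3′ UTR. *Slc30a4*, a zinc transporter, had 19 in the CDS and 7 in the 3′ UTR. *Gm19410* had 17 and 9, both in the CDS, and *Sardh*, the sarcosine dehydrogenase of mitochondria, had 12 in the 3′ UTR and 11 in the CDS.

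The peaks of *Mroh2a* and *Hjurp* lay close together, 5 within 25063 bp (chr1:88241563-88266625). None of the 5 held an odd run of 10 or more bases. The same stretch held 14 odd peaks in all, 6 of which overlapped an even peak, and 12 even peaks with pileups of 6 to 9. It is the only group of odd-only exonic peaks, among the 5 groups with summits up to 25 kb apart, with more than 1 even peak. In *Hjurp*, the odd peak at 88264852 had its summit 768 bp from that of an even-only exonic peak.

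Shared sequence tied few of the 410 peaks together. A stretch of 25 unmasked bases was common to the peaks at the vomeronasal receptors *Vmn2r4*, *Vmn2r6* and *Vmn2r7*, in 3′ UTRs on chromosome 3. Their pileups were 11, 22 and 21, and each held a run of probe 7, of 11, 13 and 13 bases. These 3 peaks are copies of the same sequence and not separate observations. The peaks at *9030025P20Rik* and *Gm3435* on chromosome 17 shared such a stretch too. With soft-masked bases included, 20 peaks shared 25 bases with another.

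Genes of hepatic metabolism were then examined as lists, each set beside the 1.93% of all protein-coding genes. In glucose metabolism 3 of 35 genes had an odd-only exonic peak (8.57%, 2.96 to 22.4). *Crtc2*, the CREB coactivator of gluconeogenesis, had a CDS peak with a pileup of 7, *Foxo3*, a forkhead factor inhibited by insulin, a CDS peak of 9, and *Pdp2*, the phosphatase that activates pyruvate dehydrogenase, a 3′ UTR peak of 9. Their longest odd runs were 8, 8 and 9 bases. In insulin and leptin signalling 1 of 40 genes did, *Pik3r1*, the regulatory subunit of PI3-kinase (3′ UTR, pileup 8, 11 bases of probe 7). In lipid synthesis 1 of 35 did, *Gpam*, which starts glycerolipid synthesis (CDS, pileup 14, 11 bases of probe 1). In fatty acid oxidation and lipid droplets it was *Plin2*, 1 of 32. Lipoproteins and sterol transport had 0 of 37, which allows up to 8.11%.

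Among hepatocyte genes 1 of 38 had such a peak, *Hnf4a*, a main transcription factor of hepatocytes (3′ UTR, pileup 7, longest odd run 7). It also counts among the 3 of 47 nuclear receptors (6.38%, 2.19 to 17.2), with *Nr1i2*, the xenobiotic receptor PXR (CDS, pileup 14), and *Thrb*, a thyroid hormone receptor (3′ UTR, pileup 8). Of 67 chromatin regulators 5 had a peak (7.46%, 3.23 to 16.3), namely *Chd1* and *Hdac7* (above), the DNA methyltransferase *Dnmt3b* (3′ UTR, pileup 21), the histone acetyltransferase *Kat6b* (CDS, 8) and the histone methyltransferase *Ehmt1* (CDS, 5). The last 3 held no odd run above 9 bases. Per Mb of eligible exon, the chromatin regulators had 11.7 peaks (3.81 to 27.4), against 7.27 over all protein-coding genes, so their interval includes the overall density. That of glucose metabolism was 25.6 (5.29 to 74.9) and that of nuclear receptors 19.6 (4.04 to 57.3), and both include it too.

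Large gene families gave further counts. Solute carriers, the membrane transporters of small molecules, had 15 peaks in 14 of 356 genes (3.93%, 2.36 to 6.49), or 13.9 per Mb of exon (7.78 to 22.9), an interval just above the overall 7.27. Of these 15, *Slc23a2*, a vitamin C transporter (3′ UTR, pileup 14), and *Slc28a3*, a nucleoside transporter (3′ UTR, 13), held runs of 13 bases, of probes 9 and 7. *Slc25a29*, a mitochondrial carrier (3′ UTR, 15), held 12 bases of probe 3. *Slc6a17* had the highest pileup of the family, 22, in its 3′ UTR. Olfactory receptors had 4 of 1128 (0.355%, 0.138 to 0.908), or 1.83 per Mb (0.500 to 4.70), below the overall density. All 4 lay in 3′ UTRs, at *Olfr550*, *Olfr292*, *Olfr243* and *Olfr1137*, with pileups of 6, 9, 12 and 7.

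In the other families, zinc finger genes had 8 of 385, vomeronasal receptors 4 of 327, cytochrome P450 genes 2 of 94 (*Cyp2j9* and *Cyp2w1*), and protocadherins, keratins and histone genes 1 each, of 67, 49 and 67. Collagens had 0 of 42. Among these were *Zfp629* with a pileup of 18 (3′ UTR), *Pcdhb22* with 17 (3′ UTR) and *Zfp106* with 16 (CDS). *Zfp157* (CDS, pileup 15) held a run of 13 bases of probe 7. *Krt40* and *Hist1h2ac* had 11 each. The lists were 18 in all, and no test was run over them.

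Among genes at the loci the study examines, an odd-only exonic peak lay in *Zhx3*, which overlaps *Plcg1* (chr2:160767600-160767805, 3′ UTR in exon 3 of 3, pileup 10, fold enrichment 7.25). It held 11 bases of probe 3, under the limit of 12. No such peak had its summit in an exon of *Gm19619*, *Lepr*, *Foxo1*, *Plcg1*, *Adcy8*, *Prkar2a*, *Npy*, *Areg* or *Btc*. Of all protein-coding genes, 1.93% had one. The selection leaves out peaks near starts, in introns, outside genes or overlapping an even peak. This count therefore cannot be set against the binding the paper reports, such as at the *Foxo1* promoter region and upstream of *Lepr*.

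The distance to the other list was measured last. The even peak nearest to an odd-only exonic peak had its summit 224700 bp away at the median, and within 10000 bp for 22 of the 410 (5.37%, 3.57 to 7.99), against 4.30% of all odd-only peaks under the limit. Genes with such a peak had an even peak anywhere in the gene body in 38 of 401 cases (9.48%, 6.98 to 12.7), against 6.17% of all protein-coding genes. Longer genes hold more of both. Among genes over 60 kb the shares were 15.1% (10.4 to 21.5) and 20.3%, between 20 and 60 kb 7.46% (4.10 to 13.2) and 5.17%, and under 20 kb 3.70% (1.45 to 9.14) and 1.54%, so each interval held the value of all genes. An even-only exonic peak was also present in 4 of the 401 genes (0.998%), against 62 of all 20807 protein-coding genes. These 4 are 6.45% of the 62, against the 1.93% of all protein-coding genes that had an odd-only exonic peak. The shares are not like for like, since the 401 genes have more exon sequence. The 4 genes were *Hjurp* and its neighbour *Mroh2a*, *Nav2* and *Rgs8*, and the summits of the 2 lists lay between 768 and 66131 bp apart.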

How the data were processed

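Reads of 101 bp were mapped to mm10 by the authors, and peaks were called library by library (MACS2 2.1.1.20160309) without a control or local background, with reads extended to 200 bp, 1 read per position and a q limit of 0.05. The submitters' processing notes also name Novoalign 4.02.02 and SAMtools 1.9. The deposited pileup is a signal in extended reads, not scaled between libraries. The fold enrichment of the authors is a ratio, with the library's background below the line, and the deposited −log10 columns hold p- and q-values, told apart by MACS2's column order since their headings were damaged. In the even list 1 damaged start was restored from end and length.

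Summits were annotated with GENCODE vM21, CDS before 5′ UTR before 3′ UTR. Runs were searched on both strands of GRCm38 with Python 3.11.15, numpy 2.4.6, pandas 2.3.3 and scipy 1.17.1 (figures, matplotlib 3.10.9), and the search was tested on simulated data. Probe letters served as search keys only, and the letters printed were read from the RefSeq GRCm38 genome. Named peaks are 10 with the longest odd run (ties by pileup), genes with several peaks, the peaks at the pileup limit, those in the 18 gene lists and those at loci the study examines. The result of 1 list is not reported here. The peaks and lists were chosen with earlier results of these data known. Alternatives were stricter peak filters, other distances to starts or even peaks, other run lengths, and CDS or UTRs alone.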

Additional observations from a re-analysis of the deposited data

Results flagged for a closer look

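The comparisons above use chromosomes 1 to 19. The X chromosome, which they leave out, held 10 odd peaks that met every other condition. Their density on this chromosome was not computed. Their summits lay in 3′ UTRs in 8 and in the CDS in 2, and pileups ran from 7 to 26 with a median of 17. At least 12 consecutive bases of an odd site were present in 4 of them. *Col4a6*, a basement membrane collagen, held 14 bases of probe 7 (3′ UTR, pileup 22), *Porcn*, the acyltransferase of Wnt ligands, 13 bases of probe 1 (CDS, 9), *Gpm6b* 12 bases of probe 7 (3′ UTR, 26) and *Gpkow* 12 bases of probe 11 (3′ UTR, 14). With 1 library, no test was possible.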

How the results depend on the processing

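The number of odd-only exonic peaks was 106 at a fold enrichment of at least 10, and between 298 and 457 under the other 6 filters. The share with a run of an odd site was 50% at that fold enrichment, 55.4% for runs of 10 bases, 4.39% for runs of 14 and 20.5% when the run had to lie within 100 bp of the summit. The share with a run of an even site was 2.68% at 10 bases and 0% at 14. The share of summits in the CDS was 38.4% when at least 50% of the peak had to be exonic, a setting under which 23 of 349 peaks had their summit outside exons and counted for no class and no gene. The share of protein-coding genes was 1.71% with a pileup under 20, 1.70% with a −log10 q of at least 5, 0.509% at a fold enrichment of at least 10, 1.39% at over 3000 bp from starts, 2.15% with starts of transcripts of type protein_coding only, and 1.54% with the exonic-share rule. Density was 8.40 per Mb in the CDS alone and 6.56 in UTRs alone. The share of runs on the sense strand turned below equal shares for runs of 14 bases (44.4% of 18). The median distance from summit to run stayed between 45.5 and 52 bp. With all 14 probes as listed, 29.51% of peaks held an odd run. No paired analysis was possible because each probe set has 1 library. With 6972538 odd and 7052802 even reads left, weak peaks can be missed in either list, so the lack of an even peak is a limit of detection and not a measured absence. Neither the causes of these shifts nor how many peaks reflect the RNA was tested.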
